A study of Mus musculus with 2 samples.

Results

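The RNA of 9 complement genes was compared between primary macrophages and self-renewing macrophages, 9 of 22906 named genes on the array. They were 3 chains of C1q (C1qa, C1qb, C1qc), 2 central components (C3, C4b), 2 genes of the alternative pathway (Cfb, Cfp) and 2 receptors (C3ar1, C5ar1). The genes were chosen by family, with earlier results of the same 2 arrays known, so their values are a description and were not tested. All probes whose transcript accession names 1 of the 9 genes were used, and all 9 genes had at least 1 probe well above background on both arrays.

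Complement is a set of proteins that mark particles and cells for uptake and raise inflammation. C1q, built from the products of C1qa, C1qb and C1qc, starts the classical pathway by binding antibody or surface patterns. C3 is the central component at which all pathways meet, and its cleavage yields an opsonin that is bound to the particle and a small peptide that is sensed by receptors. Macrophages are a known source of C1q, C3 and properdin, and they carry receptors for the cleavage peptides.

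Both cell populations were grown from total bone marrow of C57BL/6 mice, labelled male, in medium with 100 ng/ml recombinant human M-CSF, the growth factor that drives macrophage development. The primary macrophages were taken at day 5 by their label, and the self-renewing macrophages came from such cultures after passage 4. The methods describe the latter as bulk cultures unless a clone is named. Each population was measured on 1 Agilent mouse array with 1 dye, and both arrays lay on 1 slide. Effects of culture age, of passage, of the single culture and of the source animals cannot be told apart. With 1 array per population, no test was possible and no difference has a replicate check.

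Signals are given as background-corrected intensity, with the error that the scanner software estimates for the spot, and as a log2 level above or below that array's 75th percentile. The percentile was an intensity of 434 for primary and 446 for self-renewing macrophages. A difference is the log2 level in self-renewing macrophages minus that in primary macrophages, and its error joins those of both spots. These errors cover the spot and not the culture. As a scale for them, the SD of the log2 difference between probes of 1 gene was 0.319 (root mean square over 5077 genes). Levels of different probes were in general not set against each other, since probes bind with unequal strength. The exceptions were the choice of a probe for each gene and the summed levels of marker lists, with the genes that lead them.

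A gene is called detected where it was well above background by the scanner software's flag. Of 15512 named genes detected on 1 or both arrays, 14000 were detected on both. A further 1181 were detected in primary macrophages alone and 331 in self-renewing macrophages alone. All 10 genes of a macrophage marker list were detected on both arrays. The M-CSF receptor gene Csf1r stood at a log2 level of 8.04 in primary and 8.42 in self-renewing macrophages. The summed level of that list, on the linear scale relative to the 75th percentile, was 908 and 1206. Its genes did not all differ alike, with 8 higher and 2 lower. Fcgr1 differed by -1.76 and Cd14 by -0.68, whereas Cx3cr1 differed by 1.09 and Mertk by 2.23. The neutrophil list, with 9 of its 10 genes on the array, had summed levels of 105 and 6.57. Of the 9, 8 were detected in primary and 4 in self-renewing macrophages. S100a9 and S100a8 had bounds of -10.96 and -9.64. Elane, which differed by -0.47, led that list in self-renewing macrophages at a log2 level of 2.58. The megakaryocyte list had summed levels of 258 and 54.3, led on both arrays by Pf4, which macrophages also express. Of 10 fibroblast and stromal genes, 4 were detected in primary and 1 in self-renewing macrophages, with summed levels of 0.27 and 0.32. The collagen gene Col1a2 was detected on both arrays, with intensities of 52.9 and 88.1, Postn, Fbn1 and Thy1 in primary macrophages alone, and Col1a1, Col3a1, Dcn, Lum, Pdgfra and Pdgfrb on neither. Of 6 Y-linked genes, 0 were well above background in the primary and 4 in the self-renewing macrophages, while Xist, the X-inactivation transcript, was detected in the primary macrophages alone. On the primary array these transcripts go against the male label, and a difference in the sex of the source animals cannot be told apart from the difference between the populations.

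Of the 9 genes, 4 were higher by 2-fold or more in self-renewing macrophages, namely C3 and the 3 C1q chains. At the same threshold 4.76 percent of all genes were higher, counted over the 15512 named genes detected on 1 or both arrays. Cfb alone was at least 2-fold lower, where 8.38 percent of all genes were. C4b, Cfp, C3ar1 and C5ar1 differed by less than 2-fold. The median difference of the 9 genes was 0.26, beside -0.02 for all named genes. Nearest to the threshold, C1qb stood at 1.68 on the inside and Cfp at 0.26 on the outside among higher genes, and Cfb at -1.50 and C4b at -0.41 among lower ones.

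**Figure D1:**
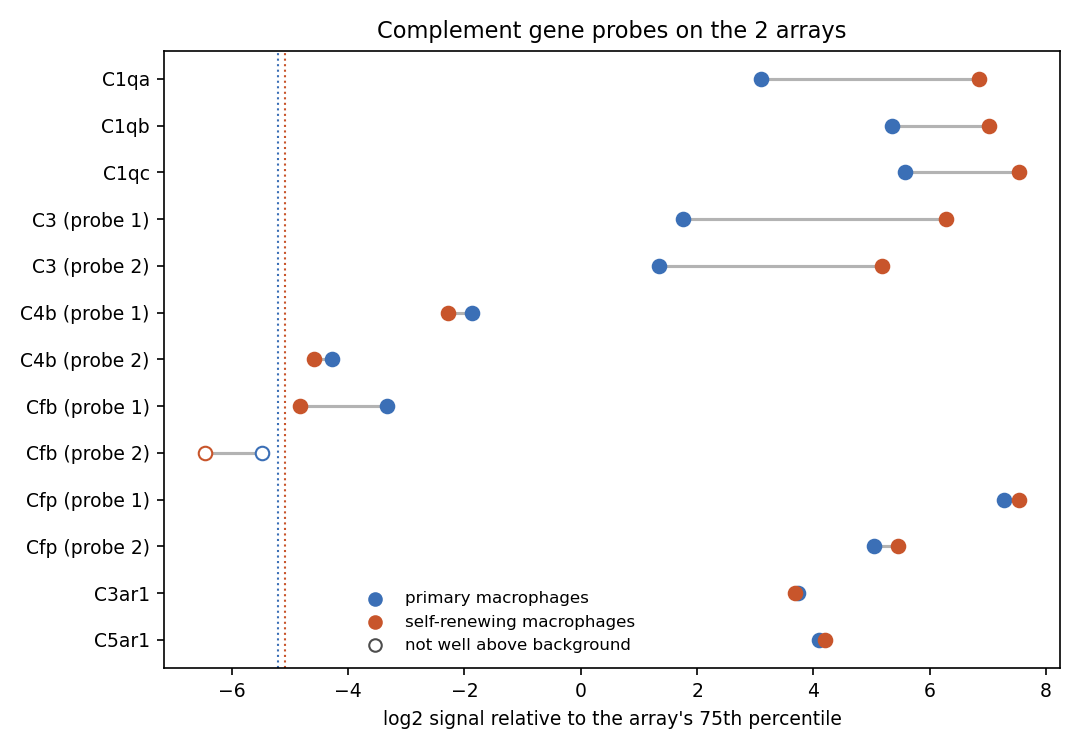
Log2 signal, scaled to each array's 75th percentile, is plotted for the 13 probes of the 9 complement genes, in primary macrophages (blue) and self-renewing macrophages (orange), 1 array each. Open circles were not well above background, dotted lines mark the lowest signal well above background on each array (-5.20 and -5.08), and the widest gaps are those of C3 (1.75 to 6.28) and C1qa (3.10 to 6.84).

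C3 showed the greatest difference of the 9 genes. Its first probe had an intensity of 1460 ± 146 in primary macrophages and 34766 ± 3477 in self-renewing macrophages. The log2 level went from 1.75 to 6.28, a difference of 4.53 ± 0.20 or 23.1-fold. Ordered from highest to lowest, with bounds taken as they stand, C3 was 17th of 15512 named genes. Counting both directions, 0.81 of every 100 genes differed as much or more. The second C3 probe went from 1100 ± 110 to 16235 ± 1624, a difference of 3.84 ± 0.20 or 14.4-fold. Both probes were thus higher in the self-renewing macrophages, but they differed from each other in the size of the change by more than the typical spread between probes of a gene. C3 is also made by stromal cells. Of the stromal genes above, Col1a2 was higher in self-renewing macrophages by 0.69. Postn, Fbn1 and Thy1 were detected in primary macrophages alone, and the rest of that list on neither array. The part of such cells in the C3 signal was not tested.

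Since C3 differed most, the 250 bases before its annotated start are printed here, together with the same stretch for C1qb and C1qc, which were also past 2-fold. The sequences are RefSeq's, from GRCm38.p6, written 5′ to 3′ on the gene's strand, which is the minus strand for all 3, and end at the base before the start. Capitals mark the letters that match a motif searched on both strands. In C3 (chr17:57228137-57228386) they are a C/EBP motif, TTGCNNAA, at positions -45 to -38 from the start. In C1qb (chr4:136886201-136886450) and C1qc (chr4:136892915-136893164) they are a PU.1 motif, GAGGAA, at -30 to -25 on the gene's strand and at -193 to -188 on the other strand.
C3: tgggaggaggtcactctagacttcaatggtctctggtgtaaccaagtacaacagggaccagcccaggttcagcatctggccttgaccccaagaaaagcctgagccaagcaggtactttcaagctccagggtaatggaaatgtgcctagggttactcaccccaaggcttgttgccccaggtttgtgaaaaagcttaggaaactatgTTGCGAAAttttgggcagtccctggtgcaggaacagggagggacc
C1qb: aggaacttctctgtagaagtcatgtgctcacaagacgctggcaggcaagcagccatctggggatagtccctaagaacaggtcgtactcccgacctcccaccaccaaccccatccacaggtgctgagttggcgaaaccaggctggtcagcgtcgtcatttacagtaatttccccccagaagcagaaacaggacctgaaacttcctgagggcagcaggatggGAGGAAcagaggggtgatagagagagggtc
C1qc: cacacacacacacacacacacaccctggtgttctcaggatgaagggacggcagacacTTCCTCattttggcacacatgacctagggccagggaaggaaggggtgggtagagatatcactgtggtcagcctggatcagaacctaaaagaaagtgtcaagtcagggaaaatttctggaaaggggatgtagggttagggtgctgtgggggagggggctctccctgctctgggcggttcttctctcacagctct

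Such short runs of letters are common. Of 32851 promoters cut to the same 250 bases, 9.56% hold the C/EBP letters and 23.3% hold the PU.1 letters. The other motifs searched were the interferon response element (GAAA, any 2 bases, then GAAA) in 2.98% of promoters, the STAT site TTCNNNGAA in 7.02%, the NF-κB site (GGG, any 2 bases, then TTTCC) in 1.41% and the Maf site core TGCTGAC in 3.81%, and 0 of the 3 printed stretches hold any of these. Stretches for Cfp, C3ar1 and C5ar1 were searched as well. C1qa, C4b and Cfb matched no promoter and were not searched, so the printed stretches leave out C1qa, which was also past 2-fold. C3ar1 holds the NF-κB letters at -14 to -5 on the other strand, and Cfp and C5ar1 hold 0 of the motifs. A match of letters does not show that a factor binds there.

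The 3 C1q chains were all higher in self-renewing macrophages, by unequal amounts. C1qa, which encodes the A chain, went from an intensity of 3706 ± 371 to 51220 ± 5122, a log2 difference of 3.75 ± 0.20 or 13.4-fold. In the order used for C3 it was 43rd from the highest. Counting both directions, 1.42 of every 100 genes differed as much or more. C1qc, the C chain, went from 20560 ± 2056 to 82706 ± 8271, a difference of 1.97 ± 0.20 or 3.91-fold. C1qb, the B chain, went from 17602 ± 1760 to 57960 ± 5796, a difference of 1.68 ± 0.20 or 3.20-fold.

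The log2 difference of C1qa exceeded that of C1qb by 2.07 and that of C1qc by 1.78, several times the spread between probes of a gene, whereas C1qc exceeded C1qb by 0.29, less than that spread. Each chain had 1 probe, so this gap between chains rests on single probes. No spot was flagged as saturated on either array. That flag covers the scanner and not the binding of RNA to the probe, and a limit in binding was not tested.

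The 3 C1q genes lie side by side on chromosome 4, in the order C1qb, C1qc and C1qa by the RefSeq assembly table. The nearest detected genes beyond them differed less where they were measured on both arrays. On the C1qb side, Ephb2, a receptor tyrosine kinase gene, differed by 0.13, the histone demethylase gene Kdm1a by -0.29 and Luzp1 by 0.54. On the C1qa side, Zbtb40 differed by 0.19 and the small GTPase gene Cdc42 by -0.17, and Wnt4, a secreted ligand detected in the self-renewing macrophages alone, by at least 0.84. The 5 genes measured on both arrays lay under 2-fold, against 1.68 to 3.75 for the C1q genes.

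Around C3 on chromosome 17, the neighbours differed in both directions. The TNF family ligand gene Tnfsf9 was higher by 1.26, and its relatives were lower, Tnfsf14 at -0.99 and Cd70, detected in primary macrophages alone, with a bound of -1.22. On the other side, Trip10 stood at -1.32, Gpr108 at 0.39 and Vav1, a signalling gene of blood cells, at 0.28. The values measured on both arrays lay between -1.32 and 1.26, against 4.53 for C3, and the true difference of Cd70 may lie below its bound.

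**Figure D2:**
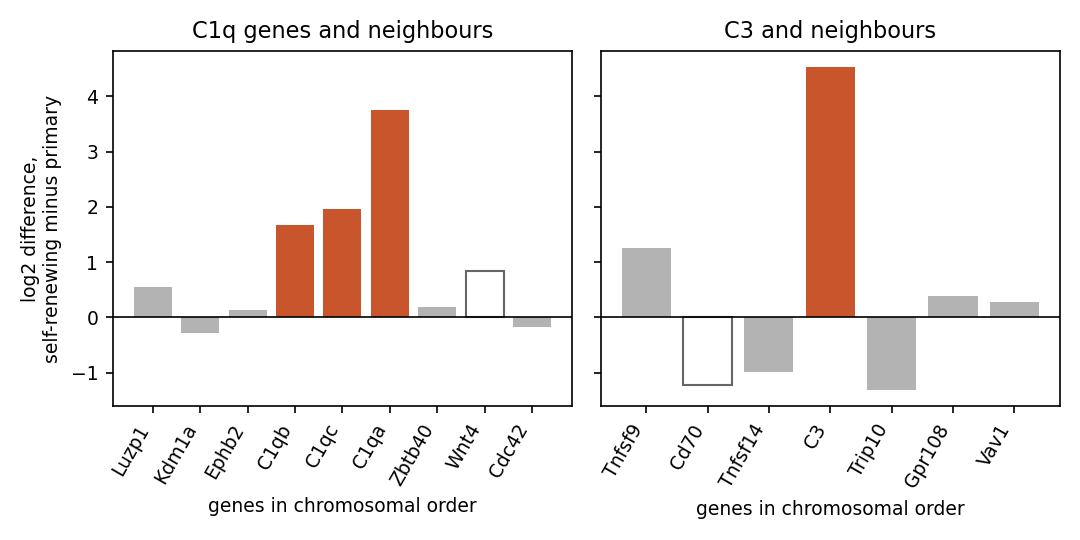
Bars show the log2 difference, self-renewing minus primary macrophages, for the C1q genes and C3 (orange) and the 3 nearest detected genes on each side (grey) in chromosomal order, not to distance. White bars (Wnt4 and Cd70) are bounds for genes well above background on 1 array. The orange bars stand at 1.68 to 4.53, where the neighbours measured on both arrays lie between -1.32 and 1.26.

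C4b, a central component of the classical and lectin pathways, was dim on both arrays. Its first probe had an intensity of 119 ± 12.2 in primary and 92.0 ± 9.63 in self-renewing macrophages, a difference of -0.41 ± 0.21. The second probe gave 22.5 ± 3.55 and 18.7 ± 3.58, a difference of -0.31 ± 0.36, which is smaller than its own error. C4a is nearly identical to C4b, so a C4b probe could also bind its transcripts, and the probe for C4a was well above background on neither array.

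Cfb encodes factor B, the protease that joins C3b in the alternative pathway's convertase. Its signal was 43.1 ± 5.00 in primary macrophages and 15.6 ± 3.23 in self-renewing macrophages, a difference of -1.50 ± 0.34 or 2.84-fold lower. The self-renewing value lay only 0.25 log2 above the lowest signal called well above background on that array. A second Cfb probe was well above background on neither array, at 9.73 and 5.07. With another background correction, normexp with an offset of 50, the Cfb difference was -0.49, under 2-fold. That offset is added to each signal and exceeds both Cfb intensities. It shrinks the differences of dim probes by construction, so the value is not a separate check.

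Cfp encodes properdin, which stabilises that convertase, and it was bright on both arrays. Its probes read 67117 ± 6712 and 14296 ± 1430 in primary macrophages against 82779 ± 8278 and 19491 ± 1949 in self-renewing macrophages. The differences were 0.26 ± 0.20 and 0.41 ± 0.20, both under 2-fold. Cfp lies on the X chromosome, and its nearest detected neighbours were Timp1 on one side, which differed by -1.96, and Elk1 on the other, at -0.01. Beyond Timp1, Syn1 differed by -2.59 and Araf by -0.18.

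The receptor genes C3ar1 and C5ar1, for the peptides C3a and C5a, had nearly the same signal on both arrays. C3ar1 had an intensity of 5742 ± 574 and 5756 ± 576, a difference of -0.04 ± 0.20, whose sign turned with the scaling, from -0.06 to 0.15 over the alternatives. C5ar1 had 7420 ± 742 and 8168 ± 817, a difference of 0.10 ± 0.20. Neutrophils also carry C5ar1 and hold properdin, and the neutrophil list was at a summed level of 105 in the primary and 6.57 in the self-renewing macrophages. In bulk RNA, fewer cells of a type and less RNA per cell cannot be told apart, and the part of other cells in these values was not tested.

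**Figure D3:**
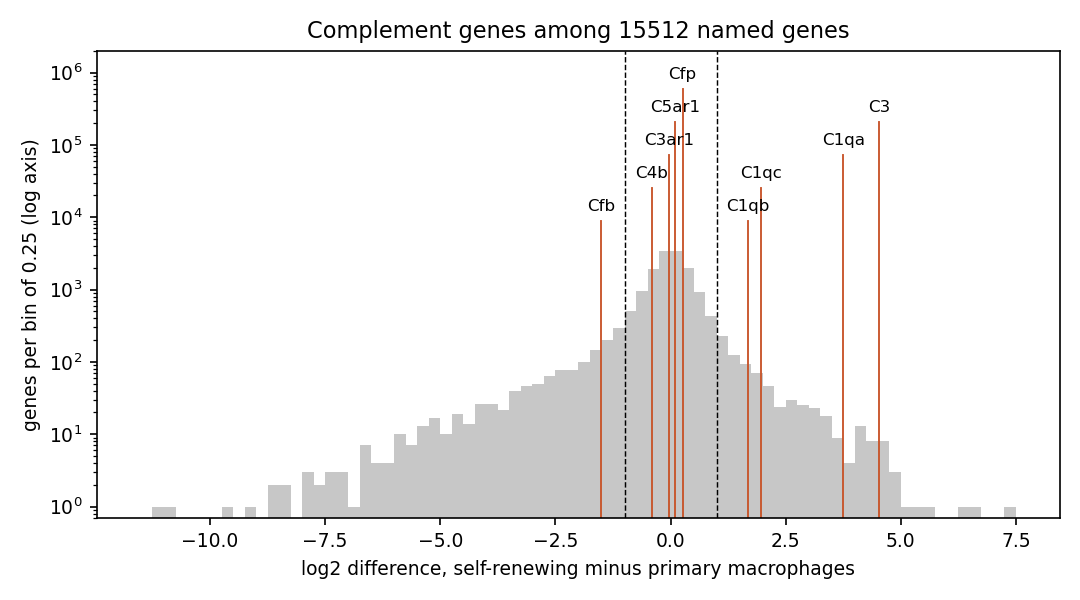
The grey histogram counts the 15512 named genes by log2 difference, self-renewing minus primary macrophages, in bins of 0.25 on a log count axis, with bounds for genes detected on 1 array. Orange lines, whose heights only separate the names, mark the 9 complement genes, and dashed lines mark 2-fold. C3 and C1qa lie in the sparse right tail at 4.53 and 3.75, and 4 genes lie within 2-fold.

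A list of 40 other complement genes was examined for the rest of the system, all of them on the array. Of these, 27 were detected, 26 in primary and 18 in self-renewing macrophages, with 17 on both arrays. Detection leaned the same way over all 15512 detected named genes, with 1181 in primary macrophages alone and 331 in self-renewing macrophages alone. At 2-fold 1 of 27 was higher (3.70%, beside 4.76 percent of all named genes) and 5 were lower (18.5%, beside 8.38 percent), with a median difference of -0.05. Among the 21 genes not past 2-fold, 14 were measured on both arrays and 7 had a bound under 2-fold or none.

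Among genes that act with C1q or in the lectin pathway, 7 of 14 were detected and 1 was higher. Fcna, which encodes ficolin A, a soluble pattern receptor of the lectin pathway, went from 655 to 3025, a difference of 2.17 ± 0.20 or 4.49-fold. C1ra, a protease of the C1 complex, differed by 0.57 and C2, the protease partner of C4b, by -0.85. C1ra and C1rb are nearly identical in sequence, as are C1s1 and C1s2, and their probes may share signal. The serum lectins Mbl1 and Mbl2 and their proteases Masp1 and Masp2 were well above background on neither array. Cfd, the alternative pathway protease factor D, was detected in the self-renewing macrophages alone, by 1 dim probe at 23.3, with a bound of 0.94. Its second probe was well above background on neither array, at 3.91 in primary and 3.18 in self-renewing macrophages.

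Of 7 terminal components, 4 were detected and 1 was lower. C9, which forms the membrane pore, was at least 2.54-fold lower, and C6, C8a and C8b were well above background on neither array. Among 5 fluid-phase regulators, Clu, which encodes clusterin, was at least 4.55-fold lower, with 58.2 in primary macrophages. Among 7 membrane regulators, Cd59b, an inhibitor of pore assembly, was at least 5.02-fold lower, whereas its near copy Cd59a differed by 0.50. Cr1l, which encodes the regulator Crry, differed by 0.23. The 3 lower differences start from dim signals and are bounds. With the normexp background correction they were under 2-fold, at -0.43 for C9, -0.80 for Clu and -0.67 for Cd59b. The offset in that correction by itself shrinks differences between dim signals.

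All 6 further receptor genes were detected and 2 were lower. Itgax, the alpha chain of complement receptor 4, had an intensity of 5180 in primary and 597 in self-renewing macrophages, a difference of -3.16 ± 0.20 or 8.93-fold lower, and its second, dim probe gave a bound of -1.69. Its sister chain Itgam, of complement receptor 3, differed by 0.06, and their shared beta chain Itgb2 by -0.05. Itgax is also a marker of dendritic cells, whose list had 5 of 7 genes detected in the primary and 2 in the self-renewing macrophages. The list's summed levels of 194 and 206 were nearly all 1 Siglech probe, at log2 levels of 7.60 and 7.69. A second Siglech probe was well above background on neither array, at intensities of 3.44 and 2.96. Within that list Ccr7 was lower together with Itgax, from 227 to 9.29 with a bound of -4.15, and Cd209a and Flt3 had bounds of -0.64 and -0.41. Zbtb46 differed by 0.62, and Clec9a and Xcr1 were detected on neither array. The part of such cells was not tested. C5ar2, the second C5a receptor, had 1090 and 454, a difference of -1.31 ± 0.20, and its difference less that of C5ar1 was -1.40.

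**Figure D4:**
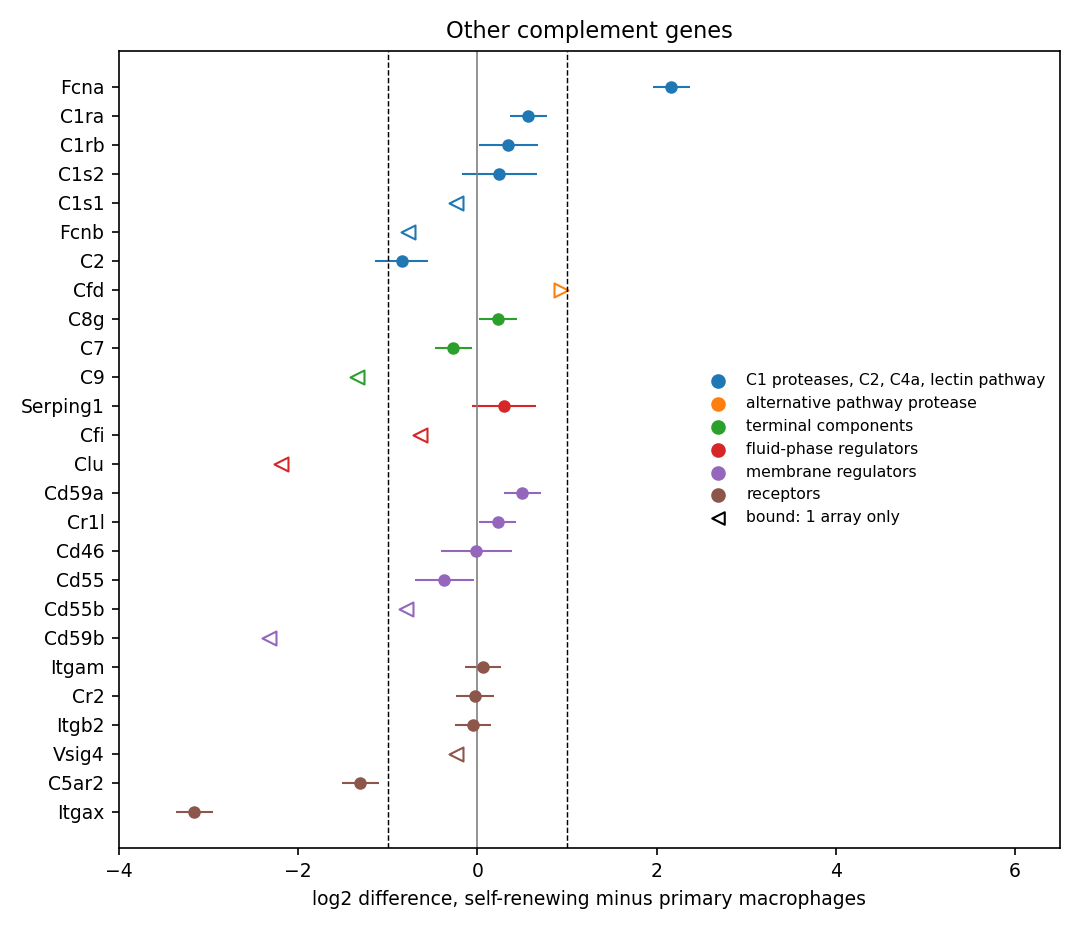
The log2 difference, self-renewing minus primary macrophages, is shown for 26 other complement genes coloured by role, with bars for the scanner software's error. Open triangles are bounds for genes well above background on 1 array, pointing to the side on which the true difference lies, dashed lines mark 2-fold, and Fcna (2.17) and Itgax (-3.16) lie farthest out. Hc had no bound and is not drawn.

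The same arrays were processed in 9 other ways, and the differences of the 9 genes moved by more than the spread between probes only for Cfb under normexp and for C3 as a mean over its probes. C1qa ranged from 3.66 to 3.94, C1qc from 1.95 to 2.16, C1qb from 1.66 to 1.87 and C3 from 4.19 to 4.72. Of the 9 alternatives, 6 changed the value of each C1q gene and 7 that of C3, and all of these left the gene above 2-fold. The other scalings, the authors' values and the kept outlier spots each shifted all 9 genes by a constant of at most 0.19. Such shifts could not take C3 or the C1q genes under 2-fold. The background filters could not move them, since their probes were well above background on both arrays, nor could the mean over probes move a C1q gene, which has 1 probe.

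**Figure D5:**
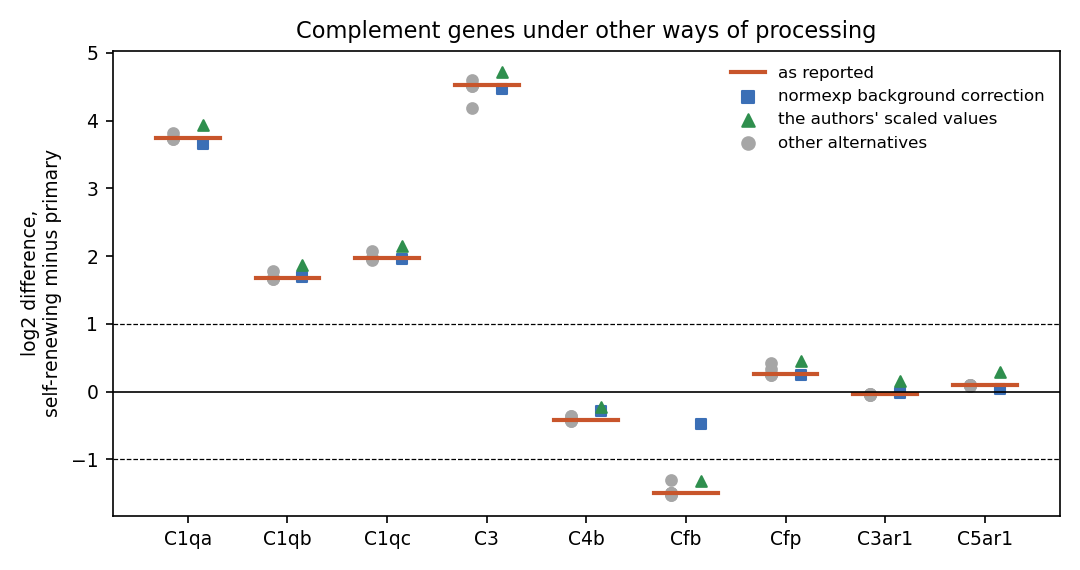
The log2 difference, self-renewing minus primary macrophages, is plotted for each of the 9 complement genes as reported (orange line) and under 9 alternatives (symbols), with dashed lines at 2-fold. C3 and the C1q genes lie above 2-fold throughout, and Cfb moves from -1.50 to -0.49 with the normexp background correction (blue square).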

How the data were processed

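Total RNA of 1 culture of primary and 1 of self-renewing macrophages was labelled with Cy3 and hybridised to Agilent SurePrint G3 mouse arrays. The authors deposited the Feature Extraction 11.5.1.1 output, with each spot's background-corrected intensity. They also deposited these intensity values times 1 constant per array, 1.07 and 1.19. How these were chosen is not given in the sources used here. The methods name GeneSpring for the arrays and, for differences between samples in general, a paired test, which these arrays do not allow.

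Here, each log2 intensity was reduced by the 75th percentile over that array's gene probes. Controls and outlier-flagged spots (63 gene spots per array) were dropped, and repeat spots averaged. A probe counted as well above background when at least 50% of its kept spots were. Of 56598 probes, 32983 were named through their accessions and a RefSeq table of GRCm38.p6. The array was designed on an earlier assembly, so the table served for names, gene order and promoters only, and 6 of the 9 genes matched a promoter. The probe with the highest mean level stood for its gene. Where only 1 array had a gene well above background, the difference is a bound: the dim side was set to the lowest signal called well above background there, or to the probe's own signal if that was higher.

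The number of arrays, 1 per population, limits the precision, so differences are given by size with a threshold of 2-fold. Named genes are all 9 members with every probe, other complement genes and transcription factors past 2-fold, the brightest of each marker list used, and further genes chosen after their values were seen. The members and lists were chosen with earlier results of these data known. Results for some genes are not reported here. The calculation was run on simulated data with planted changes well past the threshold, noise below the spread between probes, and no bounds. That run checks the arithmetic and not the precision of the differences. The 9 alternatives were normexp with an offset of 50, quantile normalization, 2 other scalings, the values as the authors scaled them, no background filter, a filter on both arrays, the mean over probes, and outlier spots kept. Python 3.11.15, numpy 2.4.6, pandas 2.3.3, R 4.3.3 and limma 3.58.1 were used.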

Additional observations from a re-analysis of the deposited data

How the results depend on the processing

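For the 9 complement genes the alternatives gave 81 values, of which 57 differed at all from those reported. Of the 57, 55 stayed within the spread between probes of a gene, and 0 of the called differences changed sign. The exceptions were C3 at 4.19 as a mean over probes and Cfb at -0.49 with normexp, under which 0 of the 9 genes were at least 2-fold lower. The other scalings, the authors' values and the kept outlier spots each shift the 9 genes by a constant of at most 0.19. Values from these alternatives had to stay within that spread. The count of all named genes at least 2-fold higher was 428 with normexp and 1191 with no filter on background, in place of 738. The count lower was 750 with normexp, 2335 with no filter and 782 with probes well above background on both arrays, in place of 1300. Of the called genes, 36.2% were higher as reported and 49.2% with the authors' scaled values, which shift all differences by 0.19, with 1034 higher and 1069 lower. Among the other complement genes, the count higher was 2 in place of 1 with quantile normalization, with the authors' values and with no filter, and the count lower was 2 with normexp, 10 with no filter and 2 with probes well above background on both arrays, in place of 5. The alternative filters change which probes are admitted, and the offset of normexp shrinks the differences of dim probes by construction. The cause of the other shifts was not tested. No paired analysis was possible because each population has 1 array. The dim probes of Cfb, C4b, C9, Clu and Cd59b lie near background, which limits their values.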

Other observations

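Of 11 transcription factors known to act at complement genes, all 11 were well above background on both arrays, with a median difference of 0.44. At 2-fold, 3 were higher and 1 was lower, beside 4.76 percent and 8.38 percent of all named genes. Cebpd, which encodes an inflammation-induced C/EBP factor, went from an intensity of 6414 to 22608, a log2 difference of 1.78 ± 0.20 or 3.43-fold. Relb and Nfkb2, which encode the partners of the non-canonical NF-κB dimer, were higher by 1.61 and 1.09, and their second probes by 1.76 and 1.34. Nr1h3, which encodes the sterol-sensing nuclear receptor LXRα, had 855 and 74.5, a difference of -3.56 ± 0.21, and its second probe gave -3.32. Maf, a macrophage factor, differed by 0.44 and Irf8 by -0.07. No link between these levels and the complement genes was tested.

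Among the 3 nearest detected genes on each side of C3ar1, 3 in all were lower past 2-fold, beside 8.38 percent of all named genes. C3ar1 itself stood at -0.04. The glucose transporter gene Slc2a3, detected in primary macrophages alone, had a bound of -5.44, and the lectin receptor genes Clec4a3 and Clec4a1 differed by -3.79 and -1.20. In the region of Cfb and C4b, the nearest detected genes and those between them ranged from -0.38 for Cyp21a1 to 0.67 for Atf6b. Around C5ar1 and C5ar2, the nearest detected genes ranged from -0.51 for Dhx34 to 1.29 for Bbc3.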
